A study of Mus musculus with 6 samples.

Results

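Immunoglobulin variable (V) segments were taken from RNA-seq of femurs of C57BL/6 mice, by symbol. Every mouse gene whose symbol begins with Ighv, Igkv or Iglv followed by a number was a member: 348 annotated genes on GRCm38, the assembly that mm10 names. Of these, 6 had a row among the 22824 rows of each file, and all 6 belong to the kappa light chain (Igkv). The 185 Ighv and 3 Iglv genes and the other Igkv genes were not analysed here, so the values below cover a small corner of the antibody repertoire. RNA was measured in 3 OE and 3 Ctrl libraries. OE mice carried both the 9.6kb DMP1-Cre transgene, a driver used for osteocytes and late osteoblasts, and the R26-Wnt7b allele, and were homozygous. Ctrl mice were littermates with R26-Wnt7b and no Cre, and age is not given in the labels.

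A developing B cell builds its antibody genes by joining a V segment to a joining segment (and, in the heavy chain, a diversity segment). Each V segment encodes most of the part of the chain that meets antigen. A joined kappa gene is transcribed from the promoter of its V segment together with the constant exon Igkc. Cells of the marrow that carry such transcripts range from small pre-B cells, which make little, to plasma cells, which make very large amounts. Femurs of all 6 libraries were labelled as cleared of marrow and cartilage, and V segments are transcribed by cells of the B lineage.

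The 6 segments lie on chromosome 6. Igkv4-71 (ENSMUSG00000073028), Igkv4-69 (ENSMUSG00000076548), Igkv4-62 (ENSMUSG00000094262) and Igkv4-54 (ENSMUSG00000094319) are annotated as V genes of the Igkv4 family, which has 33 symbols, all on the minus strand. These 4 spanned 389 kb and lay 1.48, 1.44, 1.33 and 1.09 Mb from Igkc. Igkv1-115 (plus strand, start 68161415, end 68161716) and Igkv13-87 (plus strand, start 68902981, end 68903266) are annotated as pseudogenes and lay 2.56 and 1.82 Mb from Igkc. Each of the 4 Igkv4 genes is annotated with a leader exon and a V exon, coding throughout, and Igkv4-71, Igkv4-62 and Igkv4-54 also with a transcript model of the V exon alone.

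**Figure D1:**
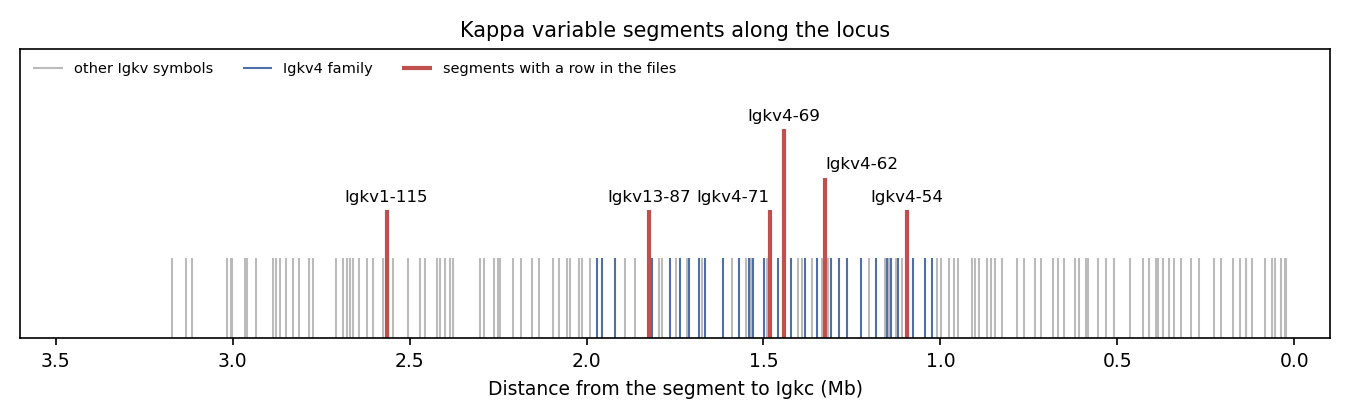
The horizontal axis gives the distance in Mb of each annotated Igkv segment from the constant exon Igkc, and the height of a line has no meaning. Grey lines are other Igkv symbols, blue lines the Igkv4 family, and red lines the 6 segments with a row, of which 4 lie within 389 kb of each other.

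The V exon sequences are shown because the members are so alike that a short read can fit more than 1 of them. Each is written 5′ to 3′ on the coding strand from the GENCODE M21 transcripts, from the first base after the leader. Capitals mark positions at which the segments are not all the same, counting past the end of Igkv4-69 only the other 3. The stretches are chr6:69243158-69243445 for Igkv4-71, chr6:69283794-69284075 for Igkv4-69, chr6:69399810-69400097 for Igkv4-62 and chr6:69631646-69631933 for Igkv4-54, all on the minus strand of GRCm38.
Igkv4-71: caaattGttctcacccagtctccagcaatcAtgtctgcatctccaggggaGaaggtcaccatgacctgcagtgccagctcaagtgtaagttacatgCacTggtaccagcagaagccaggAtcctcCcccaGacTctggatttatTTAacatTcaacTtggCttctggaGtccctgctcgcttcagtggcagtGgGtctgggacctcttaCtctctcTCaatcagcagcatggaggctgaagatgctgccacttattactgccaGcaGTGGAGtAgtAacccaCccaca
Igkv4-69: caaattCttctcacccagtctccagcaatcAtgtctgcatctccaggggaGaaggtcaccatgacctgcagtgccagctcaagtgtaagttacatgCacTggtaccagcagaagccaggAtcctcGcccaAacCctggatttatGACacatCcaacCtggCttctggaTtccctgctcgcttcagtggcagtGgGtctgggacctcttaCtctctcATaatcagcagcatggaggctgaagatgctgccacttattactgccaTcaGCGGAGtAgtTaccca
Igkv4-62: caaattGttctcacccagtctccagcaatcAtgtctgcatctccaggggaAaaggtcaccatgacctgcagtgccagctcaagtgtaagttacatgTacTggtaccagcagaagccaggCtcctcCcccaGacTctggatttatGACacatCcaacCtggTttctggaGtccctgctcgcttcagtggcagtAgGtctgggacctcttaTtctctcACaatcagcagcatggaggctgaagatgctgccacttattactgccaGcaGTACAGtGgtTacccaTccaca
Igkv4-54: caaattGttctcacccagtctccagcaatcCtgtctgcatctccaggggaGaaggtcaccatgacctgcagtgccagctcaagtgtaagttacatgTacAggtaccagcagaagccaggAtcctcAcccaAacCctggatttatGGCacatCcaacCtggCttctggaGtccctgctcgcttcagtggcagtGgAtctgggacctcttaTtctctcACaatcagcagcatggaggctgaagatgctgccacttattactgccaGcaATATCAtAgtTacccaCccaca

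Over the first 282 bases, 252 were the same in all 4 segments and 30 were not. The differences were unevenly placed: bases 1 to 47 held 2 of them, bases 48 to 94 held 1, bases 142 to 188 held 7, and bases 236 to 282 held 9. Bases are counted from 1 at the 5′ end of the printed stretches. Identity between pairs ran from 93.1% for Igkv4-71 with Igkv4-54 to 94.7% for Igkv4-71 with Igkv4-69. Closer copies exist among the segments without a row. The closest to Igkv4-71 was Igkv4-68 (96.5%), the closest to Igkv4-69 was Igkv4-70 (95.7%), the closest to Igkv4-62 was Igkv4-78 (96.2%) and the closest to Igkv4-54 was Igkv4-61 (96.9%). Of all 50-base stretches within a V exon, 51.5% in Igkv4-71, 63.9% in Igkv4-69, 61.1% in Igkv4-62 and 47.7% in Igkv4-54 occurred in no other annotated V segment. The 2 pseudogenes were more distinct, with 84.2% of such stretches unique in Igkv1-115 and 100% in Igkv13-87. How reads shared between copies were treated is not given in the sources used here, so each single value is uncertain.

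Values are FPKM, a count of fragments scaled to transcript length and to the size of the library. Across the whole series, FPKM totals ran from 596413 to 775942 and 11627 to 12258 genes reached 1 FPKM per library. The neutrophil transcripts S100a8 and S100a9 took 7.25% to 16.3% of all FPKM, in femurs labelled as free of marrow cells. Wnt7b, the gene that the R26-Wnt7b allele carries, read 2.49, 0.661 and 0.295 FPKM in the OE libraries in order. Its level was 0.909 for the library labelled Ctrl 1, within the OE range. It was 0.00833 in Ctrl 2 and listed at 0 in Ctrl 3. Because the library labelled Ctrl 1 went against its label here, the tests between groups are given with and without it. OE 2 and OE 3 read below that library, so Wnt7b does not show which libraries are the unusual ones. All 10 osteoblast and osteocyte genes listed below were lowest in Ctrl 2 and Ctrl 3. The labels do not say that each library is a separate animal, so p-values measure the spread between these libraries, which may be technical.

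The same 4 segments were detected everywhere. At a detection limit of 0.1 FPKM, the 4 Igkv4 segments were found in all 6 libraries. The pseudogene Igkv1-115 had 0.200 FPKM in OE 2, 0.181 in OE 3 and 0.192 in Ctrl 2, and was listed at 0 in the other 3 libraries. Igkv13-87, a pseudogene, was listed at 0 in all 6. Any pair of libraries therefore shared 4 or 5 detected segments, which was 80% or 100% of either list. Every value above 0 also passed the limit of 0.1 FPKM, so detected here means any value above 0. With only 6 members, a high overlap is not read as a result. At 1 FPKM, 2 segments, Igkv4-71 and Igkv4-69, were detected in all 6 libraries.

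Igkv4-71 was the most abundant segment in every library. It stood at 4.64, 4.0 and 2.75 FPKM in replicates 1, 2 and 3 of OE, and at 4.17, 13.0 and 12.6 for the library labelled Ctrl 1, then Ctrl 2 and Ctrl 3. Ctrl 2 and Ctrl 3 were high, and the library labelled Ctrl 1 lay within the OE range, so the groups overlapped. The means were 3.80 ± 0.961 FPKM over OE and 9.93 ± 5.0 over Ctrl (SD, n = 3).

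Igkv4-62 was the segment that differed most between libraries. It stood at 0.309, 0.333 and 0.306 FPKM in replicates 1, 2 and 3 of OE, and at 2.08, 9.83 and 10.9 for the library labelled Ctrl 1, then Ctrl 2 and Ctrl 3. The groups did not overlap, and here the library labelled Ctrl 1 lay above all OE libraries, though well below Ctrl 2 and Ctrl 3. Among all genes tested, 8.97% had all OE values below all Ctrl values, so this ordering by itself was common. The means were 0.316 ± 0.0151 FPKM over OE and 7.61 ± 4.81 over Ctrl (SD, n = 3).

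Igkv4-69 stood at 1.25, 3.06 and 1.56 FPKM in replicates 1, 2 and 3 of OE, and at 2.37, 7.38 and 5.23 for the library labelled Ctrl 1, then Ctrl 2 and Ctrl 3. The groups overlapped, since OE 2 lay above the library labelled Ctrl 1. Igkv4-54 stood at 2.78, 0.333 and 0.611 FPKM across the OE libraries, and at 1.49, 1.59 and 3.44 for the library labelled Ctrl 1, then Ctrl 2 and Ctrl 3. It was the exception among the 4, with OE 1 above the library labelled Ctrl 1 and Ctrl 2. Ctrl 2 and Ctrl 3 both lay above each of the other 4 libraries for Igkv4-71, Igkv4-69 and Igkv4-62, an order that 14.2% of the genes tested also had.

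**Figure D2:**
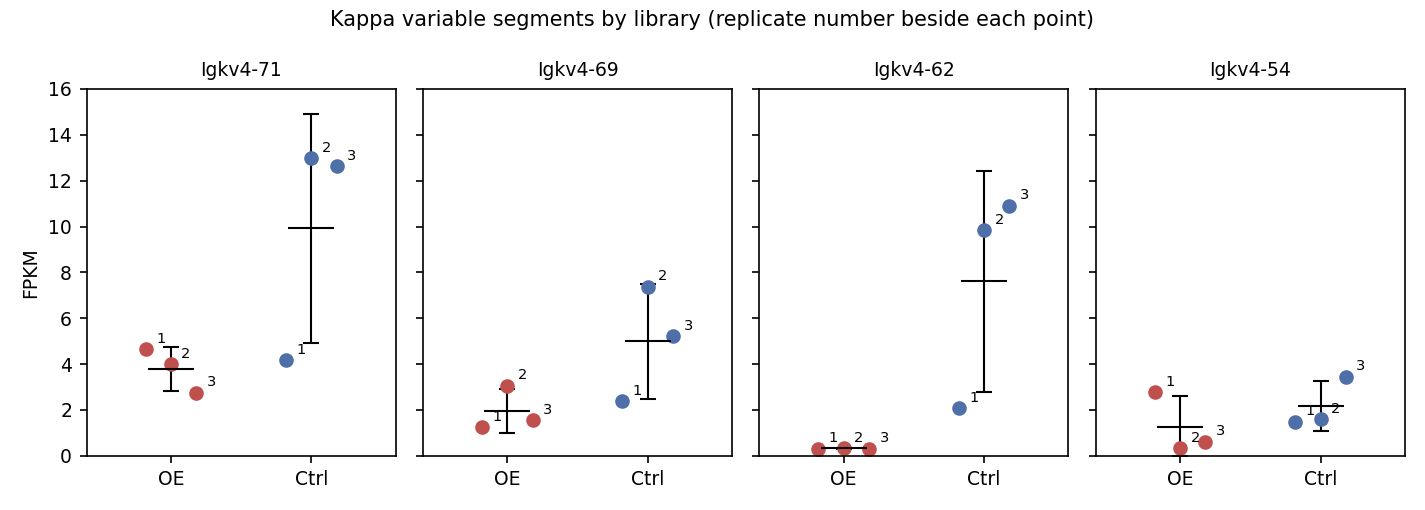
The vertical axis gives FPKM of the 4 detected V genes, with OE libraries in red and Ctrl libraries in blue, the replicate number beside each point, and a bar and whiskers for the mean and SD of 3 libraries (a whisker stops at 0). Ctrl 2 and Ctrl 3 stand apart at 12.6 to 13.0 FPKM for Igkv4-71 and 9.83 to 10.9 for Igkv4-62, while the library labelled Ctrl 1 is near or between the groups.

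These levels rest on few fragments. For Igkv4-71, Igkv4-62 and Igkv4-54, which share a transcript model of 288 bases, 18 of 18 values were whole multiples of a single unit in each library, within a relative tolerance of 0.001. The unit was sought as the smallest value divided by a whole number, so the smallest value of each library was whole by construction. In the OE libraries the unit was the Igkv4-62 value itself. The unit ran from 0.287 to 0.333 FPKM. If a step is 1 fragment, Igkv4-71 had 15, 12 and 9 fragments in OE, 14 for the library labelled Ctrl 1, 41 for Ctrl 2 and 44 for Ctrl 3. Igkv4-62 had 1 fragment in each OE library and 7, 31 and 38 in the Ctrl libraries. Igkv4-54 had 9, 1 and 2 fragments in OE and 5, 5 and 12 in Ctrl. In Ctrl 3 the largest common unit was divided by 2, because values of weakly expressed genes put 1 fragment there at 0.848 of its worth in OE 2. The unit of OE 2 was the reference for all libraries and was itself not checked, so all fragment numbers and their intervals rest on it. The values of Igkv4-69 were not whole in these units, so no fragment number is given for it.

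Counting error was wide at these numbers. The exact Poisson 95% interval of 1 fragment was 0.0253 to 5.57 and that of 38 fragments was 26.9 to 52.2, for counting error only. For Igkv4-62, 76 fragments in Ctrl against 3 across the OE libraries, scaled to the units, gave a ratio of 24.1 with a 95% interval of 7.94 to 119. For Igkv4-71 the ratio was 2.62 with an interval of 1.77 to 3.94. For Igkv4-54 it was 1.74 with an interval of 0.826 to 3.86, which includes equal levels. Without the library labelled Ctrl 1 the ratios were 32.9 (10.8 to 164), 3.38 (2.26 to 5.14) and 2.03 (0.913 to 4.66). The intervals leave out the spread between libraries, which was larger within Ctrl than counting error allows for Igkv4-62 and Igkv4-71. From the library labelled Ctrl 1 to Ctrl 2, Igkv4-62 went from 7 fragments (2.81 to 14.4) to 31 (21.1 to 44.0). Igkv4-71 went from 14 (7.65 to 23.5) to 41 (29.4 to 55.6). The ratios of these 2 segments are therefore less certain than their intervals say.

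**Figure D3:**
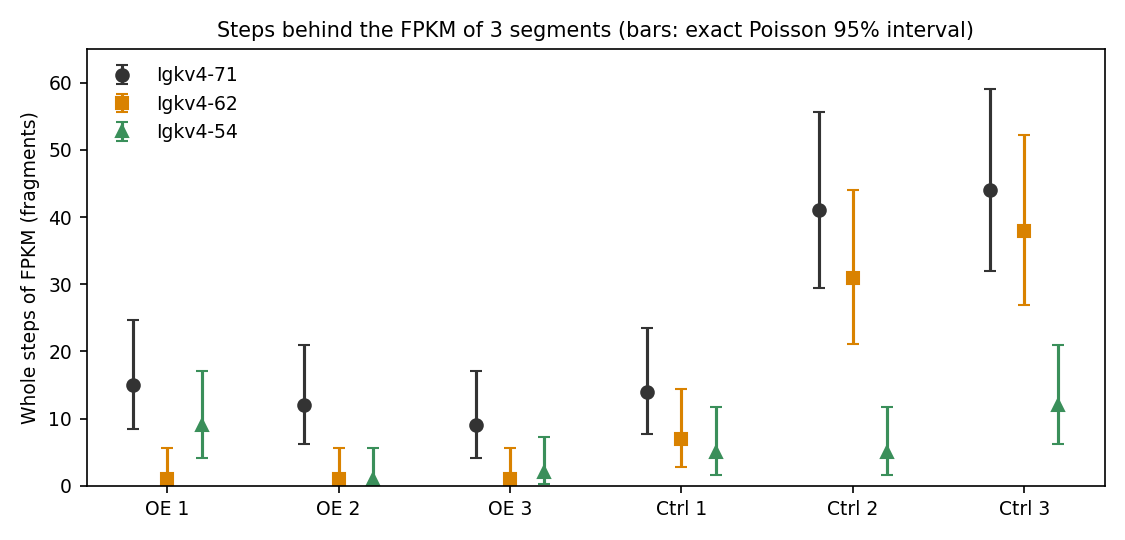
The vertical axis gives the whole steps of FPKM, read as fragments, behind Igkv4-71 (black circles), Igkv4-62 (orange squares) and Igkv4-54 (green triangles) in each library, and bars are exact Poisson 95% intervals. Igkv4-62 is at 1 in each OE library and at 31 and 38 in Ctrl 2 and Ctrl 3, and for Igkv4-54 all intervals overlap that of the library labelled Ctrl 1.

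The comparison of OE with Ctrl asks which transcripts differ when Wnt7b is switched on from Dmp1-expressing cells. Of the 6 members, 4 passed the filter of at least 1 FPKM in at least 3 libraries. Igkv4-62 passed only through the Ctrl libraries, the group in which it was high. With limma on log2(FPKM + 1), 0 of the 4 and 0 of all 12177 genes tested (0%) passed an adjusted p of 0.05. An unadjusted p under 0.05 was reached by 999 genes, or 8.20%, and by 3 V segments; limma without its mean trend called 0 genes and had 996 at that level. Igkv4-62 differed by -2.48 (SE 0.50) in log2, OE minus Ctrl, with an adjusted p of 0.554 in limma. Igkv4-71 differed by -1.07 (SE 0.40) and Igkv4-69 by -0.97 (SE 0.38), both with an adjusted p of 0.554 in limma. Igkv4-54 differed by -0.60 (SE 0.44), adjusted p = 0.616 in limma. With a pseudocount of 0.1 in place of 1, the differences were -3.90 for Igkv4-62 and -1.14 for Igkv4-54. With no filter, the 5 members above 0 in any library had a median of -0.97, beside 1.06e-04 over all 19649 genes. In that fit Igkv1-115 differed by 0.08 (SE 0.10).

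Without the library labelled Ctrl 1, 597 genes (4.90%) passed and 79 of them, or 0.649% of those tested, were lower in OE. Igkv4-62, which the filter kept only through its Ctrl values, and Igkv4-71 were among the 79. At an unadjusted p under 0.05 the background was 2069 genes (17.0%), 653 of them lower in OE (5.36%), and Igkv4-69 reached that level too. Igkv4-62 differed by -3.11 (SE 0.16, adjusted p = 0.00156 in limma) and Igkv4-71 by -1.55 (SE 0.21, adjusted p = 0.0131 in limma). Igkv4-69 differed by -1.34 (SE 0.29, adjusted p = 0.0606) and Igkv4-54 by -0.75 (SE 0.49, adjusted p = 0.517), and neither passed. These calls set 3 OE libraries against Ctrl 2 and Ctrl 3 alone. With no filter as well, a setting added after seeing the data, 65 of 19649 genes (0.331%) passed in limma. Igkv4-62 was among them (adjusted p = 0.0382) and Igkv4-71 was not (adjusted p = 0.0935).

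The summed level of all members was low. It stood at 8.98, 7.92 and 5.40 FPKM in replicates 1, 2 and 3 of OE, and at 10.1, 32.0 and 32.2 for the library labelled Ctrl 1, then Ctrl 2 and Ctrl 3. The sum was lowest in OE 3, and all OE values lay below all Ctrl values, as they did for 8.97% of the genes tested, with means of 7.44 ± 1.84 FPKM over OE and 24.8 ± 12.7 over Ctrl (SD, n = 3). As a share of all FPKM in a library the groups did overlap. That share was 0.00146%, 0.00102% and 9.06e-04% in replicates 1, 2 and 3 of OE, and 0.00138%, 0.00419% and 0.00519% for the library labelled Ctrl 1, then Ctrl 2 and Ctrl 3. OE 1 thus lay above the library labelled Ctrl 1. In bulk RNA, fewer cells of a type and less RNA per cell cannot be told apart.

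The make-up of that sum also differed between libraries. Igkv4-71 took 51.7%, 50.5% and 50.9% of it in OE and 41.2%, 40.6% and 39.2% for the library labelled Ctrl 1, then Ctrl 2 and Ctrl 3. The pair at the top together took 79.7% to 89.1% in OE and 64.7% to 73.1% in Ctrl. That pair was not always the same, since Igkv4-54 came after Igkv4-71 in OE 1, Igkv4-62 in Ctrl 2 and Ctrl 3, and Igkv4-69 in the other 3 libraries. Igkv4-62 took 3.45% to 5.65% in OE, 20.6% for the library labelled Ctrl 1, 30.7% for Ctrl 2 and 33.9% for Ctrl 3. Among the fragments of the 3 segments of equal length, Igkv4-62 was 1 of 25, 1 of 14 and 1 of 12 across the OE libraries, with exact Clopper-Pearson upper bounds of 20.4%, 33.9% and 38.5%. It was 26.9% (11.6% to 47.8%) in the library labelled Ctrl 1, 40.3% (29.2% to 52.1%) in Ctrl 2 and 40.4% (30.4% to 51.0%) in Ctrl 3. For Igkv4-62 the intervals of OE 2 and OE 3 overlap those of all 3 Ctrl libraries, and that of OE 1 overlaps the library labelled Ctrl 1 alone. Igkv4-71 was 60% (38.7% to 78.9%), 85.7% (57.2% to 98.2%) and 75% (42.8% to 94.5%) of these fragments across the OE libraries. For the library labelled Ctrl 1 it was 53.8% (33.4% to 73.4%). It was 53.2% (41.5% to 64.7%) in Ctrl 2 and 46.8% (36.4% to 57.4%) in Ctrl 3. Every OE interval of Igkv4-71 overlaps every Ctrl interval.

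**Figure D4:**
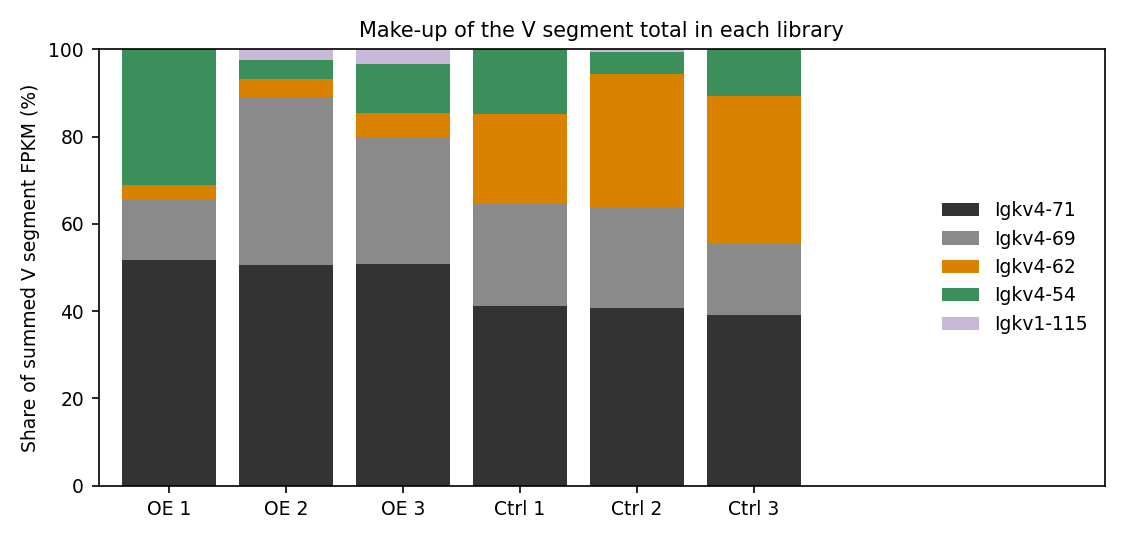
The vertical axis gives the share in percent of the summed V segment FPKM of each library, with colours for the 5 segments above 0. Igkv4-62 (orange) takes 3.45% to 5.65% in OE and 20.6% to 33.9% in Ctrl, and Igkv4-71 (black) is the largest share in all 6.

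Other antibody genes were read beside the V segments. Iglc2, a lambda light chain constant gene and the 1 gene with a row among the 12 constant genes listed, stood at 26.3, 19.8 and 20.1 FPKM across the OE libraries. Its level was 22.6 for the library labelled Ctrl 1, 105 for Ctrl 2 and 64.2 for Ctrl 3, so the same pair of libraries was high. Iglc2 differed by -1.25 (SE 0.51, adjusted p = 0.554 in limma), and by -1.86 (SE 0.26, adjusted p = 0.0151) without the library labelled Ctrl 1. The V sum was 0.268 to 0.502 of the Iglc2 level across libraries, with no gap between groups. Constant genes of the heavy chain, Igkc, Iglc1 and Iglc3 were not analysed here.

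Genes of plasma cells had no single order across the libraries. Jchain, which joins the units of secreted IgM and IgA, stood at 81.5, 73.4 and 76.2 FPKM across the OE libraries, 78.3 for the library labelled Ctrl 1, 384 for Ctrl 2 and 208 for Ctrl 3. It differed by -1.25 (SE 0.52, adjusted p = 0.554 in limma), and by -1.87 (SE 0.29, adjusted p = 0.0209) without the library labelled Ctrl 1. Of 12 plasma cell genes, 3 had Ctrl 2 and Ctrl 3 above each of the other libraries (14.2% of all genes tested) and 2 had them below (16.7%). The 3 were Jchain, Derl3, which encodes a protein of endoplasmic reticulum quality control, and Tnfrsf17, the receptor BCMA of plasma cells. Tnfrsf17 did not pass the filter on level, so it was not among the genes behind these shares. With 12 genes, neither count is read as a trait of the list. Derl3 stood at 2.29, 2.35 and 2.10 FPKM across the OE libraries, 2.47 for the library labelled Ctrl 1, 5.51 for Ctrl 2 and 4.94 for Ctrl 3. Tnfrsf17 stood at 0.289, 0.618 and 0.474 across the OE libraries, 0.193 for the library labelled Ctrl 1, 1.38 for Ctrl 2 and 0.862 for Ctrl 3. The 2 with the opposite order were Sdc1, the syndecan CD138, and Fkbp11, which encodes a peptidyl-prolyl isomerase of the secretory pathway. Sdc1 stood at 25.3, 16.4 and 13.6 FPKM across the OE libraries, 20.1 for the library labelled Ctrl 1, 8.65 for Ctrl 2 and 6.86 for Ctrl 3. Fkbp11 stood at 30.2, 35.3 and 16.2 across the OE libraries, 34.0 for the library labelled Ctrl 1, 13.5 for Ctrl 2 and 10.5 for Ctrl 3. Of 11 plasma cell genes tested, 8 differences were positive and 3 negative (median 0.28) and 0 passed with all 6 libraries. Without the library labelled Ctrl 1, 7 were positive and 4 negative (median 0.20), and Jchain and Derl3 passed as lower in OE. Derl3, Tnfrsf17, Sdc1 and Fkbp11 were singled out after their values were seen.

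Genes of early B cells had another order, with OE 3 highest. Igll1 and Vpreb1, parts of the surrogate light chain that pairs with the heavy chain before a kappa gene is joined, were far higher in OE 3 than elsewhere. Igll1 stood at 5.18, 11.5 and 91.1 FPKM across the OE libraries, 6.37 for the library labelled Ctrl 1, 1.59 for Ctrl 2 and 1.24 for Ctrl 3. Vpreb1 stood at 6.01, 11.6 and 107 across the OE libraries, 8.45 for the library labelled Ctrl 1, 2.49 for Ctrl 2 and 1.84 for Ctrl 3. All 4 surrogate light chain genes were lowest in Ctrl 2 and Ctrl 3 (an order that 16.7% of the genes tested had), the libraries with the highest V sum, and highest in OE 3, the library with the lowest. The share of all genes tested that were highest in OE 3 was not computed, here or for the lists below.

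The joining machinery itself was mixed. Dntt, which adds bases at heavy chain junctions, stood at 4.49, 7.10 and 70.5 FPKM across the OE libraries, 5.17 for the library labelled Ctrl 1, 3.24 for Ctrl 2 and 2.83 for Ctrl 3. Rag2, a subunit of the recombinase that cuts V segments, stood at 1.31, 1.48 and 6.24 across the OE libraries, 0.810 for the library labelled Ctrl 1, 0.273 for Ctrl 2 and 0.221 for Ctrl 3. Rag2 did not overlap between groups, with OE higher, as did 4.59% of the genes tested, and it differed by 1.29 (SE 0.46, adjusted p = 0.554 in limma). Without the library labelled Ctrl 1 it differed by 1.47 (SE 0.50, adjusted p = 0.196 in limma). In all, 5 of 11 recombination genes were highest in OE 3 and the median difference of the 11 was 0.01, both with and without the library labelled Ctrl 1.

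Ms4a1, which encodes the mature B cell protein CD20, stood at 1.11, 1.71 and 4.52 FPKM across the OE libraries, 0.735 for the library labelled Ctrl 1, 3.16 for Ctrl 2 and 2.99 for Ctrl 3. It was thus high both in OE 3 and in the pair of Ctrl libraries rich in V segments. Of 10 mature B cell genes, 8 were highest in OE 3, and so were all 12 pro-B and pre-B cell genes. With no share over all genes beside them, these counts are not read as a trait of the lists. OE 3 also differed in make-up, with haemoglobin genes at 7.45% of all FPKM, against 0.220% to 1.26% in the other libraries. Median differences were -0.13 over 8 mature B cell genes tested, 0.73 over 12 pro-B and pre-B cell genes and 2.01 over 4 surrogate light chain genes, beside -0.04 over all genes. Without the library labelled Ctrl 1 these medians were -0.42 (7 of 8 mature B cell genes negative, against 5 of 8 with it), 0.76 and 2.43, beside -0.06 over all genes. None of the mature, early or recombination genes passed limma at an adjusted p of 0.05, with or without the library labelled Ctrl 1.

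**Figure D5:**
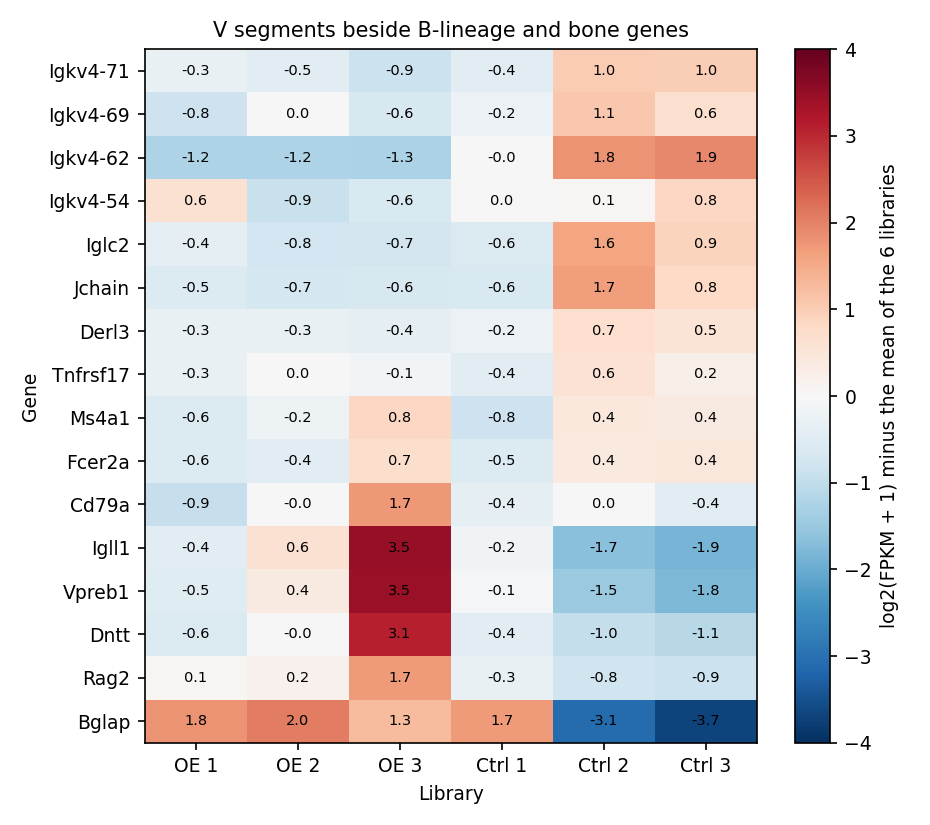
Each square gives log2(FPKM + 1) of a gene in a library minus its mean over the 6 libraries, red above and blue below, with the number printed, and Derl3, Tnfrsf17, Fcer2a, Cd79a and Bglap were added after their values were seen. Igkv4-62 reaches 1.8 and 1.9 in Ctrl 2 and Ctrl 3, next to Jchain at 1.7 and 0.8, while Igll1 is at -1.7 and -1.9 there and at 3.5 in OE 3.

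Genes of other cells differed between libraries as well, and their part in the V segment values was not tested. All 10 osteoblast and osteocyte genes were lowest in Ctrl 2 and Ctrl 3, with sums of 4231 to 7069 FPKM across the OE libraries, 6071 for the library labelled Ctrl 1, with 479 for Ctrl 2 and 397 for Ctrl 3. Their median difference was 1.93 with 0 of 10 passing, and without the library labelled Ctrl 1 it was 2.97 with 8 of 10 passing as higher in OE, beside 4.25% of all genes tested. The 10 neutrophil genes summed to 56343 to 157604 FPKM over OE and 97437 to 134086 in Ctrl (all 10 differences negative, median -0.60, 0 of 10 passing). All 9 erythroid genes were highest in OE 3. They summed to 1399, 2364 and 45393 FPKM across the OE libraries, 1737 for the library labelled Ctrl 1, 10046 for Ctrl 2 and 5049 for Ctrl 3. Their median was -0.10 with 5 of 9 negative, and -0.81 with 9 of 9 negative without the library labelled Ctrl 1, and 0 passed in either fit. The 7 T cell genes summed to 8.65, 10.2 and 19.0 FPKM across the OE libraries, 9.56 for the library labelled Ctrl 1, with 17.7 for Ctrl 2 and 16.8 for Ctrl 3 (median -0.33, 0 of 6 passing), and 5 of the 7 had Ctrl 2 and Ctrl 3 above each of the other libraries, beside 14.2% of all genes tested. Cd247, among those 5, did not pass the filter on level, so it was not among the genes behind that share. Without the library labelled Ctrl 1 the T cell median was -0.64 and the neutrophil median -0.56. No listed gene with a row was at 0 in all libraries.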

How the data were processed

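Sample titles gave the groups and replicate numbers. The submitters' processing notes name TopHat2, Cufflinks, DESeq and the mm10 build. Which step each served, with what version and annotation, is not given in the sources used here. Values are FPKM of each gene, as deposited by the authors and per the file headers, without counts. Of 22824 rows, 21606 carry an Ensembl identifier, 21172 of which matched a symbol in GENCODE M21, and 1218 are unannotated. Absolute depth is unknown. The unit steps of 3 segments put the relative depth at 1 to 1.16.

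Genes that reached 1 FPKM in 3 or more of all 6 libraries were tested on log2(FPKM + 1) with limma 3.58.1 in R 4.3.3 (eBayes with trend), adjusted by Benjamini-Hochberg over all genes, at a threshold of 0.05. Differences on this scale understate changes of low genes. The fit was tested on simulated data, in which 50% of genes with a log2 difference of 1 and 88% of those with 2 were called. The simulated noise was independent, with no library unlike the rest of its group, so these rates need not hold for the data. Other tables came from Python 3.11.15 (pandas 2.3.3, scipy 1.17.1, numpy 2.4.6) and plots from matplotlib 3.10.9. Sequences were aligned pairwise over the 346 distinct V segment symbols.

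Members and the 11 gene lists were chosen with earlier results of these data known. The rule for naming took the 6 most abundant Igkv segments, which are all 6 members, and other antibody and B cell genes listed by name. The alternatives were another pseudocount, filter and scaling, limma without trend, the replicate block, and leaving out libraries.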

Additional observations from a re-analysis of the deposited data

How the results depend on the processing

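All 4 tested segments kept a negative difference, OE minus Ctrl, in each of their 13 alternatives, from -3.90 to -2.13 for Igkv4-62, -1.55 to -0.83 for Igkv4-71, -1.34 to -0.68 for Igkv4-69 and -1.14 to -0.31 for Igkv4-54. Adjusted p in limma ran over these from 2.83e-04 to 0.9997 for Igkv4-62 and from 0.00271 to 0.9997 for Igkv4-71. Dropping the filter, leaving out the trend and adding the replicate block cannot change the difference itself. Alternatives that differ from another fit only in these were bound to keep its sign, so they add no evidence on direction. With each library left out in turn, the number of genes called ran from 0 to 597 (4.90% of 12177 tested) and of V segments from 0 to 2. Both were above 0 only without the library labelled Ctrl 1. Without the libraries labelled Ctrl 1 and OE 3, chosen after seeing the data, 1388 of 12177 genes were called, 424 of them lower in OE. Of the 4 V segments tested, 3 were called there, with Igkv4-69 at -1.26 (adjusted p = 0.0436 in limma). Calls were thus common among all genes in that setting. With no filter and without the library labelled Ctrl 1, also chosen after seeing the data, 65 genes (0.331%) and 1 V segment, Igkv4-62, were called. Without OE 2 or Ctrl 3 the difference of Igkv4-54 was -0.31 and -0.34, and without OE 1 it was -1.06. The log2 difference of the summed level was -1.59, and -2.14 to -1.31 with a library left out. Segments detected in all 6 libraries numbered 4, and 2 at a limit of 1 FPKM. In the fragments of the 3 segments of equal length, Igkv4-71 took 62.4% on average, against 45.7% of summed FPKM, since Igkv4-69 is left out.

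With the replicate block, 0 genes and 0 V segments were called, and adjusted p was 0.191 for Igkv4-62 and Igkv4-69. Deviations of same-numbered libraries correlated at 0.44, 0.09 and 0.31, and those of other pairs at -0.62 to 0.42. OE 2 and OE 3 correlated best with another number. In limma 1797 genes had an unadjusted p under 0.05 with the block, against 999 in the main fit. Whether the numbers mark pairs is not settled by these values, so the block was kept as an alternative. No V segment passed a filter of 5 FPKM. Lists of the 10 most abundant segments, planned as a measure of overlap, hold all 6 members by construction and were not used. If a step is 1 fragment, it was worth 0.287 to 0.333 FPKM for the 3 segments of 288 bases, so that lower levels of them would not have been detectable.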
